A study of Mus musculus with 16 samples.

Results

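The Nodal pathway and its co-receptor Cripto were examined through 9 genes: Tdgf1 (Cripto), Nodal, Lefty1, Acvr1b, Acvr2b, Smad2, Smad3, Smad4 and Furin. They were taken by symbol from a deposited table of 43437 genes, and each symbol was found. Only 4 of the 9, Tdgf1, Smad2, Smad3 and Smad4, reached 1 FPKM in at least 4 of 16 libraries and so were among the 11422 genes tested. FPKM is a count of sequenced fragments scaled to the length of the gene and to the size of the library.

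RNA was measured in pools of 10 mouse embryos at the 8-cell stage, about 80 cells per library. All embryos were injected as zygotes with double-stranded RNA (dsRNA), a trigger of RNA interference against the transcript it matches. Its target was GFP in the control, Tfap2c, Tead4, or Tfap2c and Tead4 together in the double knockdown, with 4 libraries in each of these 4 groups. Tfap2c encodes an AP-2 transcription factor and Tead4 a TEAD transcription factor, both active in the early embryo. Every group had 2 libraries, A1 and A2, from cross A, whose mothers were C57BL/6J×CBA/J, and 2, B1 and B2, from cross B, whose mothers were C57BL/6J×DBA/2J. The father's label differed between the libraries of a cross, from C57BL/6J×DBA/2J up to C57BL/6J×DBA/10J, with a number that climbs over successive samples and so also differs between groups. Whether these are separate strains is not known, and fathers were not used to divide the libraries. Control embryos were injected too, so no uninjected embryo was measured. A dsRNA lowers a transcript without removing the gene, and here it was given before the first division, not to chosen cells. Whether the libraries of a group came from separate matings is not stated, and the p-values rest on the spread from pool to pool, which may be technical.

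Nodal is a secreted ligand of the TGF-beta family that is made as a precursor and cut by convertases such as Furin. It binds a complex of a type I receptor (ALK4, encoded by Acvr1b), a type II receptor (ActRIIA or ActRIIB, the latter encoded by Acvr2b) and the membrane-anchored co-receptor Cripto, and the receptors then phosphorylate SMAD2 and SMAD3, which enter the nucleus with SMAD4. Lefty proteins are secreted antagonists that are themselves induced by the pathway, and in the mouse the pathway is best known for patterning the embryo after implantation.

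Tdgf1 is the gene of this set whose level moved most, and its promoter is shown because the injected dsRNA was directed at transcription factors. The 250 bases before its annotated start, chr9:110946159-110946408 of GRCm38.p6 (mm10), minus strand, read 5′ to 3′ as follows in RefSeq. The capitals mark 2 adjacent identical copies of a 19-base unit at positions -50 to -32 and -31 to -13 from the start.
Tdgf1: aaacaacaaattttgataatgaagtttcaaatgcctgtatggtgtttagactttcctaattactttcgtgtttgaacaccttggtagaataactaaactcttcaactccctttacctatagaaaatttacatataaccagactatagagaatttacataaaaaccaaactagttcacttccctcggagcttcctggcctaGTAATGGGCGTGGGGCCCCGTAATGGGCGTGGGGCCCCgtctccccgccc
An identical repeat at least that long was found in 404 of 32851 mouse promoter windows of this length (1.23%). Its copies could lie any distance apart without overlap, and adjacent copies were not counted separately. The search was made after the sequence had been seen. The G+C content of the window was 42%, against a median of 52.4% over all windows. Neither strand held the AP-2 motif GCCNNNGGC, found in 13.7% of all windows, or the TEAD motif GGAATG, found in 12.6%. The SMAD4 motif GTCTAGAC (0.167% of windows) and the FOXH1 motif AATNCACA (3.18%) had no match either. RefSeq windows were at hand for 6 of the 9 genes (7 windows, as Furin has 2), and none of the 7 held any of these 4 motifs. Absence of these letters says nothing of binding in this window or elsewhere.

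Both depletions were seen in the libraries labelled with them. Tfap2c stood at 35.7 ± 6.60 FPKM in the control (mean ± SD, n = 4 libraries here and below), 15.8 ± 1.65 in the Tfap2c knockdown, 34.8 ± 1.67 in the Tead4 knockdown and 16.2 ± 0.342 in the double knockdown. Tead4 stood at 48.6 ± 7.00, 28.3 ± 7.77, 7.66 ± 2.49 and 9.49 ± 3.94 FPKM in the same order. Tead4 mRNA was thus also lower in the Tfap2c knockdown, a call lost on leaving out Tfap2c knockdown A1 (adjusted p = 0.0594), or GFP A1 (0.0692) or A2 (0.0507), and with no filter on low values (0.0541). In cross B alone the Tead4 mRNA change was -0.39 and was not called (adjusted p = 0.385 by limma). Libraries summed to between 799260 and 874436 FPKM, with 10049 to 10504 genes at 1 FPKM or more. Total read counts were not used here, so absolute depth is unknown. Relative depth, read from the steps between low values, ran from 0.874 to 1.13 of the mean, with from 63.2% to 71% of steps whole within a tolerance of 0.1. The 6 markers of cleavage-stage embryos were all present in every group. Dppa3 held most of their sum, with means of 8269, 6086, 7906 and 6400 FPKM in the control, Tfap2c, Tead4 and double knockdown groups. Dppa3, Pou5f1 and Klf5 were called lower in the Tfap2c and double knockdowns and Nanog in the Tfap2c knockdown, while Klf17 was called higher in both and Zp3 in the double knockdown. Markers of the 2-cell stage summed to 403.7 FPKM in double knockdown B1 and 103.3 in B2, against 4.61 to 36.7 in the other 14 libraries, so these 2 libraries stand apart. The Tdgf1 change in the double knockdown was -2.24 without B1 and -2.47 without B2, and other calls lost without either are named below. Sums over 8 oocyte markers were 31.5 to 43.2 FPKM in the control, 27.6 to 44.0 in the Tfap2c knockdown, 36.2 to 78.6 in the Tead4 knockdown and 32.2 to 53.6 in the double knockdown. Those over 5 trophectoderm markers were 19.99 to 66.7, 27.8 to 45.8, 9.96 to 41.5 and 16.9 to 33.8 FPKM in the same order. Of 9 cumulus cell markers, 4 were listed at 0 throughout and only Amhr2 passed 1 FPKM; of 5 sperm markers none did. Of 5 blood markers, 2 were listed at 0 throughout and only the 2 alpha globin genes passed 1 FPKM. The blood sum was 9.86 to 26.9 FPKM in the control, 29.3 to 63.0 in the Tfap2c knockdown, 20.4 to 50.9 in the Tead4 knockdown and 40.7 to 77.7 in the double knockdown. The cumulus sum was 11.1 to 22.2 FPKM in the control, 21.2 to 29.8 in the Tfap2c knockdown, 13.6 to 24.3 in the Tead4 knockdown and 19.7 to 25.5 in the double knockdown. The part of these markers in the results below was not tested.

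The 9 genes spanned a wide range of levels in control embryos. Tdgf1 was highest at 81.5 FPKM, rank 1476 of 43437 genes, followed by Smad2 at 30.0, Smad4 at 5.08, Smad3 at 1.25, Acvr2b at 0.566 and Furin at 0.228. Acvr1b, Lefty1 and Nodal stood below these, each under 0.1 FPKM in every control library. In that order, Smad3 and Acvr2b, Acvr1b and Lefty1, and Lefty1 and Nodal differed by less than the sum of their SDs. Control embryos thus carried abundant mRNA for the co-receptor and for Smad2, while mRNA for the ligand, its antagonist and the type I receptor was at or near 0.

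**Figure D1:**
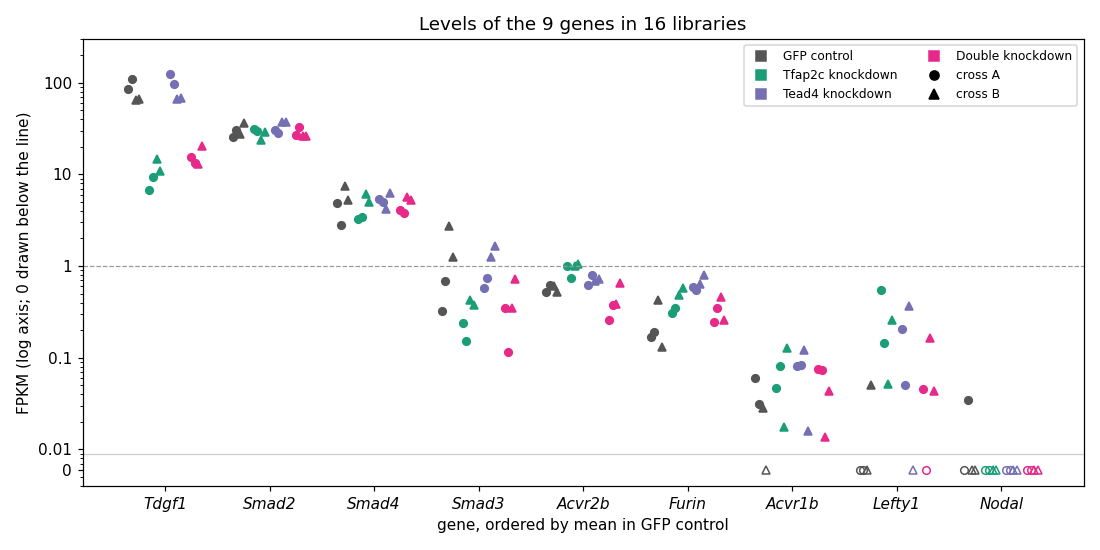
FPKM of each of the 9 genes (log axis) in each of the 16 libraries, coloured by injected dsRNA, with circles for cross A and triangles for cross B; open symbols under the grey line are values listed at 0 and the dashed line marks 1 FPKM. Tdgf1 and Smad2 lie above all others in the control, Tdgf1 is lower in the Tfap2c and double knockdowns, and Nodal is listed at 0 in 15 of 16 libraries.

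Nodal (ENSMUSG00000037171, chromosome 10, 61417972 to 61425338) was listed at 0 in 15 of the 16 libraries and at 0.0347 FPKM in GFP A2. No group can be compared at that level. Lefty1 (ENSMUSG00000038793, chromosome 1, 180935022 to 180938401) was listed at 0 in 5 libraries and never passed 0.543 FPKM. In the control it was listed at 0 in A1, A2 and B1 and at 0.05 FPKM in B2. The Tfap2c knockdown libraries A1, A2, B1 and B2 had 0.543, 0.146, 0.0523 and 0.257 FPKM, all above the control. The 2 groups did not overlap. The difference had an exact two-sided permutation p of 0.0286, the smallest that 4 against 4 libraries can give. The separation and this p rest on 0.0523 FPKM in Tfap2c knockdown B1 against 0.05 in GFP B2. These libraries had relative depths of 0.874 and 0.908, so the higher value lies in the library where each fragment counts for more FPKM. The margin cannot be told apart from this difference in library size. The separation and its permutation p therefore do not count as support for a change. Among the 11422 genes tested, 12.2% were likewise higher in all Tfap2c knockdown libraries than in all control libraries. Lefty1 was not among the 11422, and the share among genes as low was not counted. Values in the Tead4 knockdown were 0.206, 0.0498, 0.364 and 0 FPKM (exact permutation p = 0.257) and in the double knockdown 0.0456, 0, 0.162 and 0.0435 FPKM (0.371). These were overlapping with the control. The lowest values above 0, near 0.05 FPKM, recur in 5 libraries and lie at the bottom of the scale, and an annotated non-coding RNA overlaps the gene.

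Tdgf1 mRNA fell to 12.9% of its control level after Tfap2c dsRNA and to 19.1% after both dsRNAs, and was not detectably changed by Tead4 dsRNA. Tdgf1 (ENSMUSG00000032494, chromosome 9, 110939608 to 110946158) was at 84.7 (A1), 109.8 (A2), 64.9 (B1) and 66.5 (B2) FPKM in the control, and values below follow that order of libraries. It was at 6.74, 9.42, 14.8 and 11.0 FPKM in the Tfap2c knockdown. The highest of these 4 lay far below the lowest control; 9.9% of all genes tested were likewise lower with no overlap. Tead4 knockdown libraries had 124.1, 97.4, 66.3 and 68.7 FPKM, overlapping the control. Double knockdown libraries had 15.6, 13.1, 13.0 and 20.5 FPKM, again all below every control library, as for 9.3% of all genes. Means were 81.5 ± 20.9 FPKM in the control, 10.5 ± 3.38 in the Tfap2c knockdown, 89.1 ± 27.3 in the Tead4 knockdown (109% of the control) and 15.6 ± 3.51 in the double knockdown. On the log2(FPKM + 1) scale, which understates the change of low genes, limma gave a difference of -2.86 (SE 0.25, adjusted p = 1.84e-06) for the Tfap2c knockdown. The double knockdown differed by -2.30 (SE 0.25, adjusted p = 1.57e-05). For the Tead4 knockdown the difference was 0.11, with a 95% confidence interval of -0.41 to 0.64 (adjusted p = 0.863). Exact two-sided permutation p-values were 0.0286 for the Tfap2c and the double knockdown and 0.714 for the Tead4 knockdown. In a pool of whole embryos, fewer cells with a transcript and less of it per cell cannot be told apart.

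**Figure D2:**
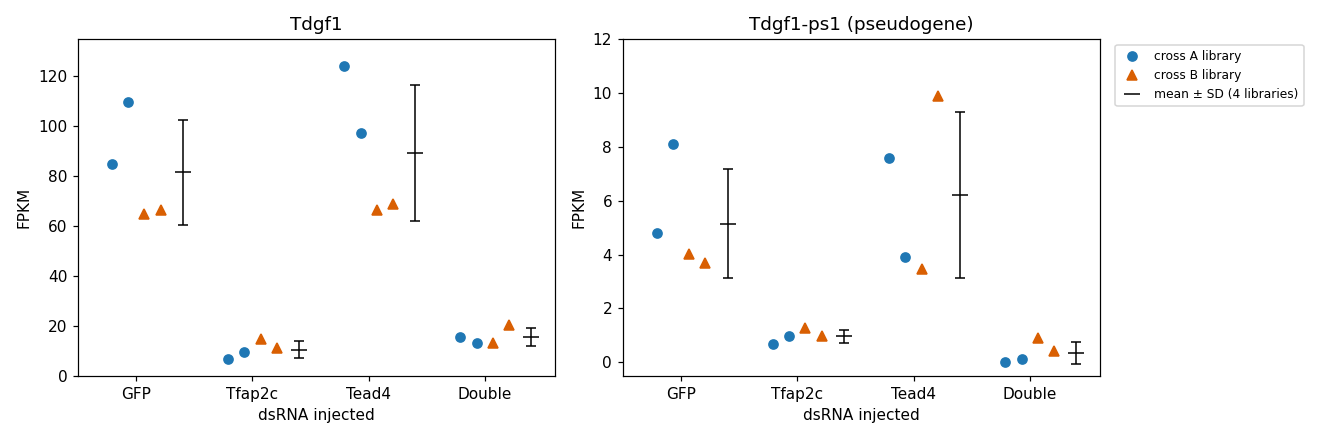
FPKM of Tdgf1 (left) and of the pseudogene Tdgf1-ps1 (right) in each library by injected dsRNA, with blue circles for cross A, orange triangles for cross B and the mean ± SD of 4 libraries in black; the axes differ in scale. All Tfap2c and double knockdown libraries lie below all control libraries in both panels.

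Between the double and the Tfap2c knockdown, Tdgf1 differed by 0.55 on the log2 scale (95% confidence interval 0.03 to 1.08), which did not pass adjustment (adjusted p = 0.498 by limma). Both groups lay far below the Tead4 knockdown, by -2.97 for the Tfap2c knockdown (adjusted p = 7.38e-07) and -2.42 for the double knockdown (adjusted p = 9.83e-06). The non-additive part of the double knockdown, which is its change less both single changes, was 0.44 (SE 0.35, adjusted p = 0.677).

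Cross A and cross B both showed the Tdgf1 difference. Within cross A alone the Tfap2c knockdown differed from the control by -3.44 (adjusted p = 0.000328) and within cross B alone by -2.28 (adjusted p = 0.00221). The double knockdown differed by -2.67 in cross A (adjusted p = 0.000752) and -1.94 in cross B (adjusted p = 0.00643). The Tdgf1 change in the Tfap2c knockdown was smaller in cross B than in cross A by 1.17 (SE 0.32). This did not pass adjustment over all genes (adjusted p = 0.128 by limma). The double change was smaller by 0.73 (SE 0.32, adjusted p = 0.424). In cross A, Tfap2c mRNA itself went from 43.2 and 38.8 FPKM in the control to 13.9 and 15.4 in the Tfap2c knockdown. In cross B it went from 28.3 and 32.4 to 16.1 and 17.8. The Tfap2c mRNA change was smaller in cross B by 0.62 (SE 0.16, adjusted p = 0.114 by limma), and its part in the Tdgf1 values was not tested. Each of the 3 interactions passed for 0% of genes by limma at an adjusted p under 0.05, and at an unadjusted p under 0.05 the shares were 16.5%, 6.98% and 11.2% for the Tfap2c, Tead4 and double knockdowns. Control and Tead4 knockdown libraries of cross A had 84.7 to 124.1 FPKM and those of cross B 64.9 to 68.7 FPKM, while Tfap2c knockdown libraries had 6.74 and 9.42 FPKM in cross A and 11.0 and 14.8 in cross B. Averaged over groups, the crosses differed by -0.11 (adjusted p = 0.659).

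A pseudogene of Tdgf1 on chromosome 16, Tdgf1-ps1 (ENSMUSG00000095834, 3730258 to 3731155), moved with the gene. It stood at 4.78, 8.09, 4.02 and 3.67 FPKM in the control and at 0.686, 0.971, 1.28 and 0.962 FPKM in the Tfap2c knockdown. The Tead4 knockdown had 7.59, 3.90, 3.46 and 9.87 FPKM. The double knockdown had 0.108, 0.893 and 0.429 FPKM in A2, B1 and B2 and was listed at 0 in A1. Its log2 differences were -1.59 (adjusted p = 0.000996) after Tfap2c dsRNA, 0.18 (adjusted p = 0.801) after Tead4 dsRNA and -2.17 (adjusted p = 0.000105) after both. Matched to chromosome 16 of NCBIM37, a Tdgf1 transcript of 1925 bases was 96.7% identical over 1009 aligned bases and 92.9% identical over 884 more. Where on chromosome 16 these matches lie was not compared with Tdgf1-ps1, which is annotated with 898 bases. Other chromosomes were not searched. If the matches are this copy, fragments can be split between the gene and the copy, and the level of each is uncertain. The copy held from 5.23% to 6.86% of their summed FPKM in the control, from 7.96% to 9.35% in the Tfap2c knockdown, from 3.85% to 12.6% in the Tead4 knockdown and from 0% to 6.41% in the double knockdown. The sum of the 2 was 86.6 ± 22.9, 11.5 ± 3.62, 95.3 ± 27.7 and 15.9 ± 3.50 FPKM in the control, Tfap2c, Tead4 and double knockdown groups. With the 2 summed, an alternative chosen after the data were seen, the differences from the control were -2.83 (adjusted p = 1.81e-06) and -2.36 (adjusted p = 1.27e-05) in the Tfap2c and double knockdowns.

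The genes whose log2 values followed Tdgf1 most closely over the 16 libraries, among 6493 genes with a mean of at least 5 FPKM, were Gnai2 (Pearson r = 0.977), Siah1a (0.969), AA987161 (0.969), Mreg (0.968) and Hmgxb4 (0.968). Gnai2, an inhibitory G protein subunit, averaged 27.3 FPKM in the control, 3.80 in the Tfap2c knockdown, 40.3 in the Tead4 knockdown and 5.59 in the double knockdown. Siah1a, a ubiquitin ligase, averaged 42.8, 9.29, 66.4 and 10.0 FPKM in that order. These points share their libraries and groups, so r describes the likeness and has no test.

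Receptor transcripts were low. Acvr1b (ENSMUSG00000000532, chromosome 15, 101174072 to 101213684) ranged from 0 to 0.126 FPKM over all 16 libraries, and every knockdown group overlapped the control. Acvr2b (ENSMUSG00000061393, chromosome 9, 119401583 to 119442148) stood at 0.521, 0.618, 0.601 and 0.521 FPKM in the control and at 1.01, 0.739, 0.991 and 1.04 FPKM in the Tfap2c knockdown. The Tead4 knockdown had 0.624, 0.803, 0.691 and 0.728 FPKM. Each of these 8 knockdown libraries lay above all 4 control libraries, by a narrow margin in the Tead4 knockdown. The double knockdown had 0.260, 0.373, 0.386 and 0.659 FPKM, with 3 of 4 libraries below the control. Means were 0.566 ± 0.0516, 0.947 ± 0.140, 0.711 ± 0.0744 and 0.419 ± 0.170 FPKM in the control, Tfap2c, Tead4 and double knockdown groups. By exact two-sided permutation, p was 0.0286 for either single knockdown and 0.143 for the double knockdown. As background, 12.2% of tested genes were higher without overlap after Tfap2c dsRNA and 6.07% after Tead4 dsRNA. Acvr2b was not in the main test or among the genes behind these shares. With no filter on low values, limma gave 0.31 for the Tfap2c knockdown (adjusted p = 0.0428), 0.13 for the Tead4 knockdown (0.613) and -0.15 for the double knockdown (0.41).

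Smad2 was abundant and did not differ detectably between groups, and Smad4 differed between crosses. Smad3 was low. Its mean was lower after Tfap2c dsRNA, but its groups overlapped and it was tested only through groups where it was high. Smad2 (ENSMUSG00000024563, chromosome 18) stood at 25.6, 30.8, 27.3 and 36.3 FPKM in the control and 31.0, 29.4, 23.7 and 28.8 FPKM in the Tfap2c knockdown. Tead4 knockdown libraries had 30.4, 28.1, 37.5 and 36.8 FPKM and double knockdown libraries 27.0, 32.6, 25.9 and 25.9 FPKM. All 4 groups overlapped. The differences from the control were -0.08 (95% confidence interval -0.36 to 0.20, adjusted p = 0.697), 0.14 (-0.14 to 0.42, adjusted p = 0.612) and -0.10 (-0.38 to 0.18, adjusted p = 0.634) in the Tfap2c, Tead4 and double knockdowns. These intervals do not show that the levels are alike, but in the Tfap2c and double knockdowns they exclude a change as large as that of Tdgf1.

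Smad4 (ENSMUSG00000024515, chromosome 18) was at 4.87, 2.83, 7.43 and 5.21 FPKM in the control and 3.24, 3.40, 6.09 and 4.98 FPKM in the Tfap2c knockdown. Tead4 knockdown libraries had 5.33, 4.98, 4.18 and 6.21 FPKM and double knockdown libraries 4.10, 3.82, 5.70 and 5.23 FPKM. Knockdown groups overlapped the control, with differences of -0.14, 0.07 and -0.05 (adjusted p = 0.587, 0.889 and 0.871). Libraries of cross B had more Smad4, 5.63 ± 0.975 FPKM (n = 8 libraries), than those of cross A, 4.07 ± 0.910 FPKM (n = 8). The log2 difference was 0.39 (SE 0.12, adjusted p = 0.0242 by limma), and the call was lost without GFP B1 (adjusted p = 0.0534) and with no filter on low values (0.0509). Smad3 was also higher in cross B, by 0.52 (SE 0.14, adjusted p = 0.0091), with 1.10 ± 0.828 FPKM against 0.398 ± 0.240 FPKM. Smad3 passed the filter only through libraries of cross B, so this call does not count as support. The crosses differed for 33.5% of all genes tested, with 17.2% higher in cross B.

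Smad3 (ENSMUSG00000032402, chromosome 9, 63646766 to 63757994) was at 0.326 (A1), 0.692 (A2), 2.75 (B1) and 1.25 (B2) FPKM in the control. The Tfap2c knockdown had 0.238, 0.153, 0.424 and 0.373 FPKM. The Tead4 knockdown had 0.574, 0.736, 1.25 and 1.66 FPKM and the double knockdown 0.352, 0.115, 0.349 and 0.719 FPKM. The 4 libraries above 1 FPKM were those of cross B in the control and the Tead4 knockdown, and the gene passed the filter through these alone. It was thus tested only because it was high in those groups and that cross, and its calls below and between crosses do not count as support. Control libraries of cross A overlapped the Tfap2c knockdown libraries of cross B. Within each cross, both Tfap2c knockdown libraries lay below both control libraries. With 2 against 2 libraries this ordering is not support either, and the share of all genes that have it was not counted. The log2 difference was -0.69 (SE 0.19, adjusted p = 0.0139) in the Tfap2c knockdown, -0.05 (adjusted p = 0.926) in the Tead4 knockdown and -0.61 (SE 0.19, adjusted p = 0.0296) in the double knockdown. Exact two-sided permutation over groups, which ignores cross, gave p = 0.0857, 0.886 and 0.2. The Tfap2c difference was -0.33 (adjusted p = 0.337) in cross A alone and -1.05 (adjusted p = 0.0368) in cross B alone, and the adjusted p was 0.083 with no term for cross and 0.0313 with no filter on low values. The double knockdown call was lost with no filter (adjusted p = 0.063), with no term for cross (0.139) and without GFP A2 (adjusted p = 0.0517), GFP B1 (0.0889), double knockdown A2 (0.0659) or double knockdown B1 (0.0958). Against the Tead4 knockdown, Smad3 differed by -0.64 in the Tfap2c knockdown (adjusted p = 0.0206, lost without Tfap2c knockdown B1 at 0.0554, Tfap2c knockdown B2 at 0.0636 or Tead4 knockdown B2 at 0.061). In the double knockdown it differed from the Tead4 knockdown by -0.56 (adjusted p = 0.0469), a call lost in 13 of the 16 fits that left out 1 library, with an adjusted p of up to 0.138 without double knockdown B1. An annotated non-coding RNA overlaps Smad3, and no source used here says that strand was counted. The genes most like Smad3 over the 16 libraries were Ghitm (Pearson r = 0.918), Pinlyp (0.915) and Xrcc1 (0.909).

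**Figure D3:**
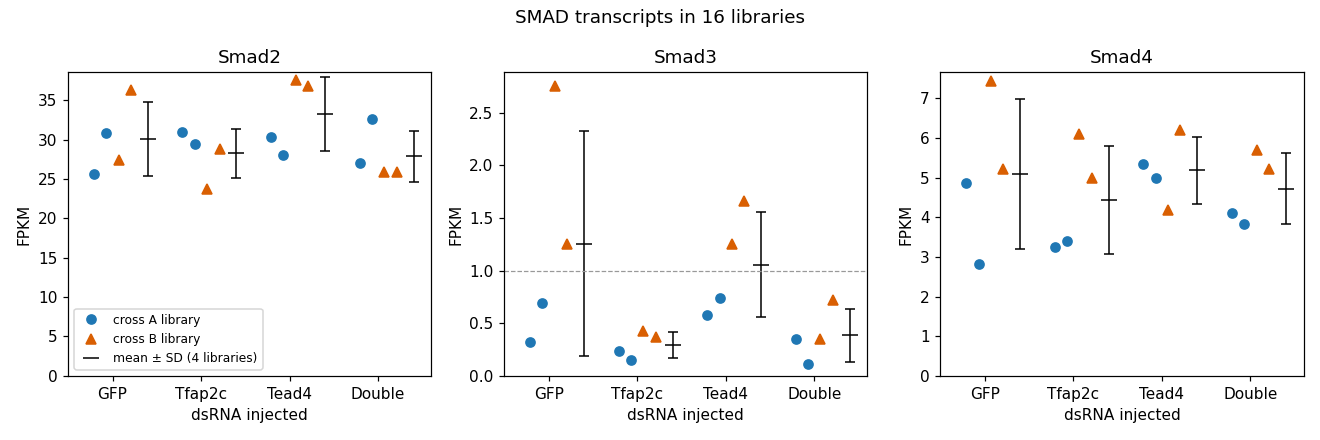
FPKM of Smad2, Smad3 and Smad4 in each library by injected dsRNA, with blue circles for cross A, orange triangles for cross B and the mean ± SD of 4 libraries in black; the dashed line in the Smad3 panel marks 1 FPKM. Smad2 groups overlap, and the only Smad3 values above 1 FPKM are those of cross B in the control and the Tead4 knockdown.

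Furin (ENSMUSG00000030530, chromosome 7, 80389194 to 80405441) stood at 0.170, 0.190, 0.422 and 0.132 FPKM in the control and at 0.308, 0.352, 0.487 and 0.581 FPKM in the Tfap2c knockdown. In the Tead4 knockdown it was at 0.592, 0.545, 0.635 and 0.801 FPKM, each above all control libraries. Double knockdown libraries had 0.245, 0.352, 0.465 and 0.260 FPKM. Control and Tead4 knockdown means were 0.228 ± 0.131 and 0.643 ± 0.112 FPKM (exact two-sided permutation p = 0.0286). The gene was too low for the main test, and an annotated non-coding RNA overlaps it by 1002 bases. With no filter, limma gave 0.42 for the Tead4 knockdown (adjusted p = 0.0142), and the double knockdown lay below the Tead4 knockdown by -0.31 (adjusted p = 0.0262). The Tfap2c knockdown overlapped the control (exact permutation p = 0.0857).

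Counted over the comparisons, 2 of the 4 tested genes, Tdgf1 and Smad3, were lower in the Tfap2c knockdown, Smad3 having passed the filter only through groups where it was high. There 29.6% of all genes were called and 13.2% were called lower. None of the 4 was called in the Tead4 knockdown, where 6.13% of all genes were; none had an unadjusted p under 0.05 there by limma. The same 2 genes, with the same limit on Smad3, were lower in the double knockdown, where 25.1% of genes were called and 11.3% were called lower. Since 1 control group serves all 3 comparisons, their counts are not independent. The 2 genes were also lower than in the Tead4 knockdown, in the Tfap2c knockdown (29% of genes called, 15.2% lower) and in the double knockdown (23.7% called, 12.9% lower). Between the double and the Tfap2c knockdown 0 of 4 genes passed by limma, 1 had an unadjusted p under 0.05, and 0.14% of all genes passed. For the non-additive part 0 of 4 passed, 0 had an unadjusted p under 0.05, and 0.753% of all genes passed. Of 27 exact permutation tests over the 9 genes and 3 knockdowns, 6 had a p of 0.0286, unadjusted, which means groups that did not overlap. In the Tfap2c knockdown they were Lefty1 and Acvr2b higher (12.2% of all genes tested) and Tdgf1 lower (9.9%). In the Tead4 knockdown they were Acvr2b and Furin higher (6.07%), and in the double knockdown Tdgf1 lower (9.3%). Lefty1 was apart only by 0.0523 against 0.05 FPKM, which cannot be told apart from a difference in library size. Its p does not count as support. Lefty1, Acvr2b and Furin were not among the genes tested, and the share among genes that low was not counted.

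**Figure D4:**
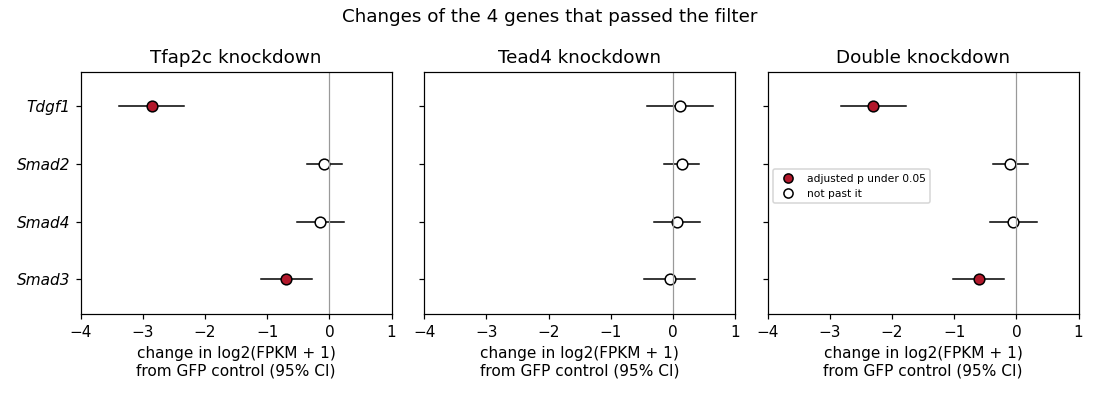
Change in log2(FPKM + 1) from the GFP control for the 4 genes that passed the filter, 1 panel per knockdown, with 95% confidence intervals from limma; filled red points passed an adjusted p under 0.05. Tdgf1 lies at -2.86 and -2.30 in the Tfap2c and double knockdowns and at 0.11 in the Tead4 knockdown.

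Other genes of the pathway were read from lists by role, 84 genes with the 9 included, of which 42 passed the filter. After Tfap2c dsRNA 7 were higher and 11 lower, where 16.3% and 13.2% of all genes were. After Tead4 dsRNA 3 were higher and 1 lower (3.35% and 2.78% of all genes), and after both 8 were higher and 9 lower (13.9% and 11.3%). The median changes of the 42 were -0.02, 0.07 and 0.01 against 0.06, 0.05 and 0.05 over all genes. Some genes sit in more than 1 list. In 5 called changes, those of Smad3 (both), Foxh1 (Tfap2c), Gsc and Bmp4 (Tead4), the lower group had no library at 1 FPKM, so the gene was tested through groups where it was high. With no filter on low values the calls of Bambi in the Tfap2c knockdown, of Gdf3 in the Tead4 knockdown, of Bmpr2, Smad7, Tmem8 and Usp9x in the double knockdown, and both of Hspa5 were lost (adjusted p from 0.0516 to 0.0758). With no term for cross, both calls of Bambi and Smad7, those of Bmp4 and Gdf3 in the Tead4 knockdown, of Ppm1a and Tgif1 in the Tfap2c knockdown, and of Bmpr2, Hspa5, Tmem8 and Trim33 in the double knockdown were lost (0.0502 to 0.266). Rescaling by median ratios or quantiles ended those of Bmpr2 (quantiles alone), Trim33 and Usp9x in the double knockdown (0.0524 to 0.0662). In fits on a single cross, with 2 libraries a group, 21 of the 50 called changes of named genes were lost in cross A and 26 in cross B, and 0 changed sign.

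Among 12 ligands, 3 were tested, and the other 9 stayed under 1 FPKM in all libraries, with Inhba and Mstn listed at 0 throughout. Gdf3, a ligand that can also signal through Cripto, was lower in all 3 knockdowns. It had 7.23, 5.89, 15.5 and 22.7 FPKM in the control, against 1.46, 0.713, 1.59 and 0.217 FPKM after Tfap2c dsRNA. Tead4 knockdown libraries had 0.934, 0.474, 3.12 and 6.57 FPKM, with B2 inside the range of the control. Double knockdown libraries had 0.703, 0.852, 0.806 and 8.49 FPKM, with B2 again inside it. The Tfap2c change was -2.68 (SE 0.48, adjusted p = 0.000754) and the double change -2.17 (SE 0.48, adjusted p = 0.0038). The Tead4 change was -1.99 (SE 0.48, adjusted p = 0.0224), a call lost without GFP A1 (0.0514), GFP B2 (0.0768), Tead4 knockdown A1 (0.0553), A2 (0.0674) or B1 (0.0593), or with a pseudocount of 0.1 (0.0547). Gdf11, a related ligand, rose from 1.20 ± 0.607 FPKM to 3.64 ± 0.548 in the Tfap2c knockdown (1.11, adjusted p = 0.000928) and to 3.23 ± 0.727 in the double knockdown (0.97, adjusted p = 0.00279).

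Of 7 antagonists, 2 were tested. Fstl3, a follistatin-like protein that binds activins, rose from 13.6 ± 2.46 FPKM to 29.8 ± 5.40 in the Tead4 knockdown (1.07, SE 0.18, adjusted p = 0.00237). It was at 11.7 ± 2.59 and 12.6 ± 3.09 FPKM in the Tfap2c and double knockdowns. Lefty2 and Cer1 were listed at 0 in all libraries.

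Of 9 co-receptor and receptor genes, 3 were tested, Tdgf1, Acvr2a and Tgfbr1. Acvr2a, the other activin type II receptor, held 3.37 ± 0.397 FPKM in the control and was called in no knockdown. Tgfbr1, the TGF-beta type I receptor, was lower in the double knockdown (-0.45, adjusted p = 0.0269), a call lost without double knockdown A1 (0.0636), A2 (0.0665) or B2 (0.0534), GFP B1 (0.0877) or GFP B2 (0.0517). Of 4 genes for proteins that bind or modify Cripto, 2 were tested. Hspa5, the chaperone GRP78, was higher in the Tfap2c knockdown (0.45, adjusted p = 0.0227, lost without GFP A1 at 0.0795, GFP A2 at 0.0508, Tfap2c knockdown B1 at 0.0556 or B2 at 0.0564). In the double knockdown Hspa5 was also higher (0.45, adjusted p = 0.0279, lost without GFP A1 at 0.0967, GFP A2 at 0.0593, double knockdown A1 at 0.0802 or A2 at 0.101). Tmem8 fell from 2.71 ± 0.423 FPKM to 1.38 ± 0.535 in the Tfap2c knockdown (-0.66, adjusted p = 0.00882). Its lower level in the double knockdown (-0.52, adjusted p = 0.0366) was lost without GFP A1 (0.0786), GFP B2 (0.111), or double knockdown A1 (0.0799), A2 (0.0897) or B1 (0.0903).

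The SMAD2 and SMAD3 arm, 21 genes with its regulators, had 18 tested. In the Tfap2c knockdown 4 were higher and 5 lower (16.3% and 13.2% of all genes), in the Tead4 knockdown 0 were called by limma (6.13% of all genes), and in the double knockdown 5 were higher and 4 lower (13.9% and 11.3%). Nedd4l, a ubiquitin ligase that acts on SMADs, fell from 8.70 ± 0.518 FPKM to 3.74 ± 0.572 in the Tfap2c knockdown (-1.04, adjusted p = 0.000403) and 3.42 ± 1.03 in the double knockdown (-1.16, adjusted p = 0.000194). Tgif2, a SMAD co-repressor, fell from 6.04 ± 1.69 FPKM to 1.89 ± 0.735 (-1.29, adjusted p = 0.002) and 1.61 ± 1.16 (-1.56, adjusted p = 0.000592). Its value in double knockdown A1 was 7.67e-06 FPKM, against 1.57 to 2.65 in the other double knockdown libraries. Without 1 library the double change of Tgif2 ranged from -1.72 to -1.22 (adjusted p of at most 0.00293). The Tgif2 call in the Tfap2c knockdown was lost with a pseudocount of 0.1 (0.0728). Foxh1, the DNA-binding partner of SMAD2, was at 1.78, 1.69, 0.712 and 1.17 FPKM in the control and 0.300, 0.757, 0.270 and 0.330 FPKM in the Tfap2c knockdown (-0.71, adjusted p = 0.00823, or 0.0218 with no filter on low values). In the double knockdown it was at 0.236, 1.10, 0.263 and 0.337 FPKM (-0.67, adjusted p = 0.0137), a call lost without double knockdown A1 (0.0504). Foxh1 reached 1 FPKM in 3 control, 4 Tead4 knockdown, 1 double knockdown and 0 Tfap2c knockdown libraries. It was thus tested mainly through groups where it was high.

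Smad7, Skil and Mixl1, genes that the pathway can induce, were called higher in the Tfap2c and double knockdowns. Smad7, the inhibitory SMAD, rose from 1.93 ± 0.348 FPKM to 4.96 ± 2.48 in the Tfap2c knockdown (0.94, adjusted p = 0.0074). Its Tfap2c knockdown libraries had 2.61, 3.35, 8.04 and 5.85 FPKM, and in cross A alone the call was lost (0.58, adjusted p = 0.0718). In the double knockdown Smad7 was at 4.64 ± 3.42 FPKM (0.78, adjusted p = 0.023). That call was lost without GFP B1 (0.0635), GFP B2 (0.0675) or double knockdown B1 (0.0645), and in cross A (0.237) or cross B (0.0597) alone. Skil, a SMAD co-repressor, rose from 0.961 ± 0.186 FPKM to 2.82 ± 0.687 (0.95, adjusted p = 0.000841) and 2.14 ± 0.189 (0.68, adjusted p = 0.0089). Mixl1, a homeobox gene induced by Nodal signals at gastrulation, rose from 8.34, 9.06, 5.00 and 5.40 FPKM in the control to 16.9, 23.3, 34.4 and 40.1 FPKM in the Tfap2c knockdown (1.86, SE 0.28, adjusted p = 0.000194). Double knockdown libraries had 20.1, 16.7, 36.0 and 30.7 FPKM of Mixl1 (1.73, SE 0.28, adjusted p = 0.000421). Tead4 knockdown libraries had 14.1, 14.1, 11.3 and 9.48 FPKM of Mixl1, also all above the control (as for 6.07% of all genes), a change of 0.76 that did not pass (adjusted p = 0.124). Of 12 Nodal target genes 4 were tested, and these 3 were higher in the Tfap2c and the double knockdown, where 16.3% and 13.9% of all genes were. The fourth, Gsc, a homeobox gene, rose in the Tead4 knockdown alone among the 3 comparisons, from 0.495 ± 0.0584 to 2.17 ± 0.847 FPKM (1.05, adjusted p = 0.00528, or 0.0174 with no filter). Gsc reached 1 FPKM in 5 libraries, all 4 of the Tead4 knockdown and 1 of the Tfap2c knockdown, and so was tested only because it was high there. Targets at 0 or near it included Foxa2, listed at 0 throughout, and T, at most 0.11 FPKM.

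Weaker calls in the same arm were lost on leaving out 1 library. Tgif1 was higher in the Tfap2c knockdown (0.69, adjusted p = 0.0146, lost without GFP A2 at 0.0531 or Tfap2c knockdown B2 at 0.0501). Ppm1a, a phosphatase, was lower there (-0.35, adjusted p = 0.0187, lost without GFP B2 at 0.0588, Tfap2c knockdown B1 at 0.0593 or B2 at 0.0713). Trim33 was higher in the double knockdown (0.40, adjusted p = 0.0307, lost without GFP A1 at 0.0759, GFP B1 at 0.0855, GFP B2 at 0.0814, double knockdown A1 at 0.0708 or B1 at 0.0945). Usp9x, a deubiquitinase, was higher there too (0.40, adjusted p = 0.0331, lost without GFP A2 at 0.0986, GFP B1 at 0.0769, or double knockdown A1 at 0.0925, A2 at 0.0771 or B1 at 0.0793). Of 4 convertases, 2 were tested, and Pcsk7 was lower in the Tfap2c knockdown, 1.90 ± 0.469 FPKM against 3.28 ± 0.484 (-0.57, adjusted p = 0.0125). Foxh1, Fstl3, Hspa5, Pcsk7 and Tgif2 each overlap a protein-coding gene in RefSeq, so their reads may be shared with it.

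**Figure D5:**
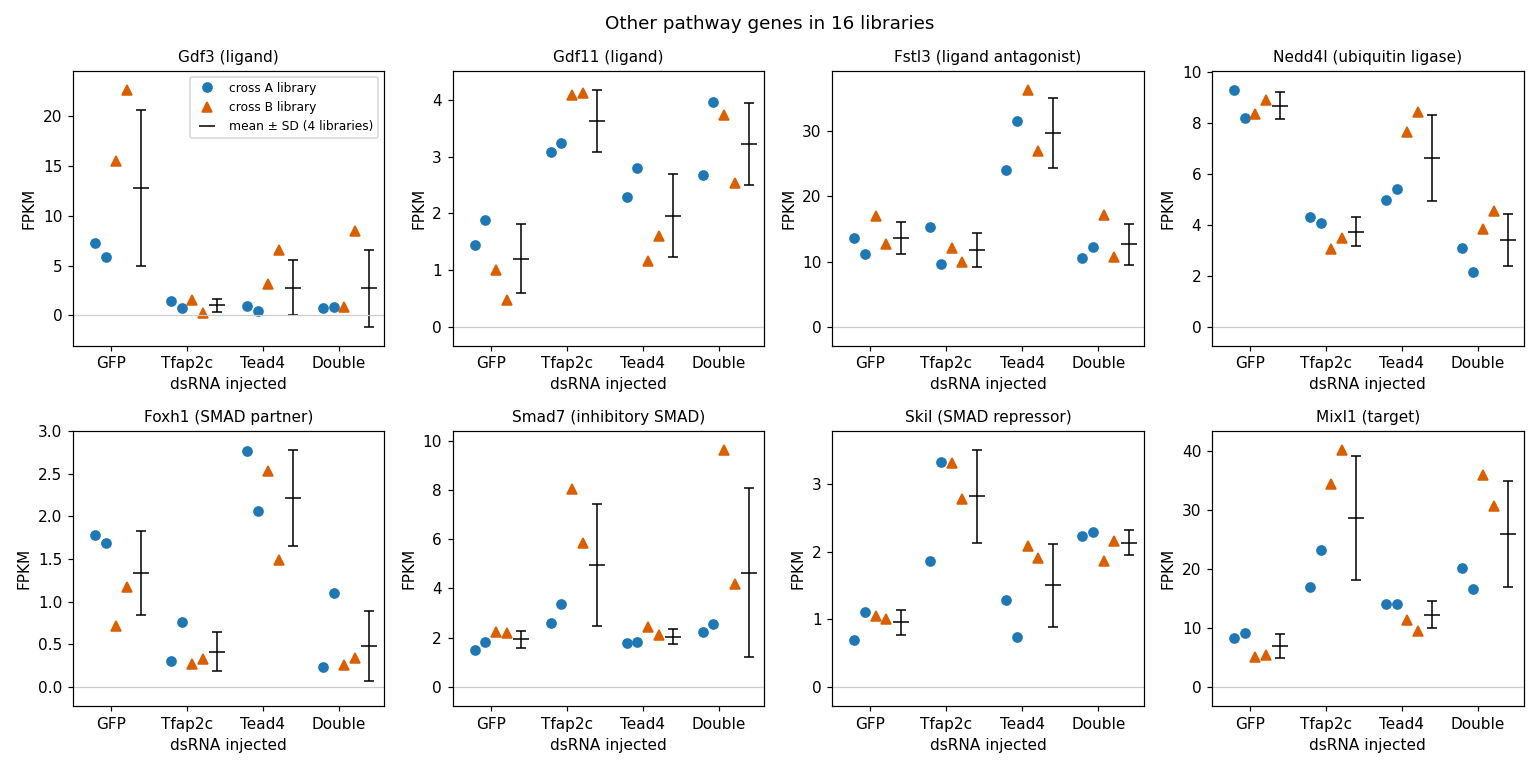
FPKM of 8 other pathway genes in each library by injected dsRNA, with blue circles for cross A, orange triangles for cross B and the mean ± SD of 4 libraries in black. Gdf3, Nedd4l and Foxh1 are lower and Gdf11, Smad7, Skil and Mixl1 higher in the Tfap2c knockdown than in the control, and Fstl3 is higher in the Tead4 knockdown.

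The BMP arm, the other branch of the family, was read alongside: 23 genes, 11 tested. In the Tfap2c knockdown 1 was higher and 2 were lower, near the 29.6% of all genes called, in the Tead4 knockdown 1 was higher (3.35%), and in the double knockdown 1 was higher and 1 lower (13.9% and 11.3%). Id1 and Id3, both BMP targets, moved apart in the Tfap2c knockdown. Id1 rose from 2.07 ± 0.780 to 9.15 ± 4.79 FPKM (1.64, adjusted p = 0.00364), and Id3 fell from 259.2 ± 55.5 to 94.9 ± 31.7 FPKM (-1.49, adjusted p = 0.00169). In cross B alone the Id1 call was lost (0.81, adjusted p = 0.124). Bambi, a pseudoreceptor that blocks the family, was lower in the double knockdown (-0.99, adjusted p = 0.0062) and in the Tfap2c knockdown (-0.80, adjusted p = 0.0187, lost without GFP B2 at 0.0587 or Tfap2c knockdown A1 at 0.0547). Bmp4 rose in the Tead4 knockdown, from 0.472 ± 0.273 to 2.02 ± 1.05 FPKM (0.99, adjusted p = 0.00816, or 0.0227 with no filter). Like Gsc, Bmp4 reached 1 FPKM in 5 libraries, the 4 of the Tead4 knockdown and Tfap2c knockdown B1, and was tested only through them. Bmpr2, a type II receptor, was higher in the double knockdown (0.42, adjusted p = 0.0312), a call lost without GFP A1 (0.0853), GFP A2 (0.0668), GFP B1 (0.0712), or double knockdown A1 (0.0741), A2 (0.074) or B2 (0.082).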

How the data were processed

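The authors deposited FPKM per gene, 1 column for each of the 16 libraries; per the submitters' processing notes, CASAVA, Trim Galore, STAR, Cufflinks and the mm10 genome were used, in versions not given in the sources used here. Per the labels' protocols, poly-A RNA was amplified by Smart-seq2 before TruePrep V2 library preparation. FPKM carries no counts, so precision rests on the spread between libraries.

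The table's 43496 lines gave 43437 genes after summing lines with a repeated identifier, and 0 columns came from outside the series. A gene was kept if 4 or more libraries reached 1 FPKM (11422 genes). The R package limma 3.58.1 (R 4.3.3; lmFit, eBayes with a trend) was run on log2(FPKM + 1) of all 16 libraries with terms for group and cross. A gene was called at a two-sided Benjamini-Hochberg adjusted p under 0.05 over all genes tested; adjusted p-values are from limma throughout. A second fit added the group by cross interaction. For the 9 genes, an exact permutation test compared 4 with 4 libraries. The fit was tested on simulated data. Promoters were searched on both strands in RefSeq windows (GRCm38.p6), and the Tdgf1 transcript was matched to chromosome 16 of NCBIM37 with blastn 2.17.0. Named genes were the 9, Tfap2c and Tead4, and from each list up to 8 genes called in any knockdown by lowest p, with the genes most like Tdgf1 and Smad3. Alternatives changed the pseudocount, filter, scaling, cross term and libraries. The members and lists were chosen with earlier results of these data known.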

Additional observations from a re-analysis of the deposited data

Results flagged for a closer look

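In 9 of 125 groups of 4 libraries, over the 9 genes and 23 other called pathway genes, 1 library stood apart from the other 3 by more than the 95% limit of Dixon's test; chance alone flags about 1 group in 20.

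Of these groups, 3 hold genes of the set. Nodal was at 0.0347 FPKM in GFP A2 and listed at 0 in the other 3 control libraries. Lefty1 was at 0.05 FPKM in GFP B2 and listed at 0 in the other 3. With 3 values at 0 any value above 0 is flagged, so the Nodal and Lefty1 flags follow from the zeros. Smad2 was at 32.6 FPKM in double knockdown A2, against 25.9 to 27.0 FPKM in the others.

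Among the other pathway genes, Gdf3 was at 8.49 FPKM in double knockdown B2, against 0.703 to 0.852 FPKM. Foxh1 was at 0.757 FPKM in Tfap2c knockdown A2, against 0.270 to 0.330, and at 1.10 FPKM in double knockdown A2, against 0.236 to 0.337. Bmp4 was at 1.55 FPKM in Tfap2c knockdown B1, against 0.0483 to 0.210. In GFP B2, Bambi was at 4.28 FPKM, against 1.99 to 2.36, and Id3 at 342 FPKM, against 225.9 to 237.3.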

How the results depend on the processing

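The Tdgf1 calls in the Tfap2c and double knockdowns held under every alternative run, from -3.44 to -2.28 and from -2.67 to -1.94, and from -3.06 to -2.65 and -2.47 to -2.16 without 1 library. Other counts moved mostly through Smad3. The number of the 9 genes called fell from 2 to 1 in the Tfap2c comparison with 1 FPKM required in 8 libraries, no cross term or cross A alone. The double comparison fell to 1 under these and with no filter or cross B alone, and without 1 library ranged from 1 to 2. Double against Tead4 fell to 1 with the stricter filter, quantile normalization, no cross term, the replicate block or either cross alone (1 to 2 without 1 library), and Tfap2c against Tead4 with the stricter filter, no cross term or either cross alone (1 to 2). The cross comparison fell to 1 with no filter (Smad3 left) or the stricter one (Smad4 left; 1 to 2 without 1 library). With no filter 1 gene, Furin, was called in the Tead4 comparison, and the Tfap2c comparison rose to 3 with Acvr2b.

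Changes that were not called turned sign: Smad3 in the Tead4 knockdown to 0.011 (pseudocount 0.1) and 0.14 (cross A), Smad2 to 0.0985 (Tfap2c) and 0.0761 (double) and Smad4 to 0.0651 (double) in cross A, and Smad4 to -0.24 (Tead4) in cross B. Without 1 library, Tdgf1 (Tead4) ranged from -0.0564 to 0.26, Smad2 (Tfap2c) from -0.15 to 0.0154, Smad3 (Tead4) from -0.20 to 0.16, Smad4 (Tead4) from -0.0846 to 0.23 and Smad4 (double) from -0.20 to 0.0699. The cause was not tested.

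Replicate numbers carry no pairing beyond cross in the labels. Deviations from group and cross means correlated above 0.1 in 2 of 12 distinct same-numbered pairs (-0.165 to 0.176). The replicate block left 3165, 603 and 2645 genes called in the Tfap2c, Tead4 and double comparisons, against 3377, 700 and 2872. Without the cross term they were 2165, 279 and 1786. Depth is unknown, so the counting error of genes under 1 FPKM cannot be given.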
